A study of Drosophila melanogaster with 6 samples.

Results

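Heads of rescue flies were compared with heads of control flies on Affymetrix arrays. The comparison took the 2 arrays titled rescue and the 2 titled control, 4 of the 6 arrays of the series, and 18769 of the 18952 probe sets, the 183 control probe sets being left out. All flies were adult Drosophila melanogaster males aged 5 days, raised under matched growth and feeding conditions. Control flies were wild-type by label. Rescue flies were homozygous mutants of the microRNA gene mir-14 in which miR-14 was expressed in the insulin-producing cells. By that description the other cells of a rescue head remained mutant, but where miR-14 was present was not analysed here. The promoter that drove the transgene and the genetic background of the lines are not given in the sources used here. Mutant heads without the transgene were the third group, and their values are given beside those of single genes only as a description, since both comparisons share the control arrays. Replicates were biological by title, with no more said about pooling. P-values measure the spread between these arrays, and no permutation test of 2 arrays against 2 can pass 0.05.

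MicroRNAs are short RNAs that pair with messenger RNAs and lower their translation or stability, so loss of a microRNA can raise its targets directly and many other transcripts indirectly. The insulin-producing cells are a small cluster of brain neurons that release insulin-like peptides into the blood, and through them set sugar and fat metabolism in the fat body and other tissues. Head samples hold brain, eyes, antennae, fat body, muscle, cuticle and blood cells together. In such bulk samples, fewer cells of a type and less RNA per cell cannot be told apart. The comparison asks what still differs from control, or newly differs, when miR-14 is present in the insulin-producing cells alone.

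The values were intensities summarised per probe set by the authors, with array medians from 59.6 to 60.7. Replicates correlated at 0.994 in control and 0.998 in rescue across probe sets. They differed by at least 1.5-fold at 571 probe sets in control and at 52 in rescue, so the spread was wider in the control pair. RNA quality also moved with the groups. Control probe sets at the 5′ and 3′ ends of actin gave a 5′ to 3′ ratio of 0.306 and 0.138 for control replicates 1 and 2, against 0.370 and 0.450 for the rescue replicates. Those of GAPDH gave 0.434 and 0.281 in control and 0.474 and 0.514 in rescue. Whether RNA quality caused any single difference was not tested. Counts with an index of both ratios as a covariate, fitted over all 6 arrays, are given for the main gene lists. For some single genes the change or adjusted p of that fit is given too. The tissue label was checked against eye genes, and the photoreceptor arrestin gene Arr2 was among the brightest signals, from 15675.4 to 16778.3 over all 6 arrays. Dim control probe sets read from 6.1 to 10.1. No level of miR-14 was analysed here.

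Rescue heads differed from control heads in genes that included members of sugar metabolism, detoxification, odour binding and vision. At an adjusted p under 0.05 (limma), 812 probe sets were higher and 498 lower in rescue, together 6.98% of those tested (4.33% higher, 2.65% lower). The median difference over all probe sets was -0.05 on the log2 scale, and the median fold of those past the threshold was 1.63. Changes of at least 2-fold were found at 243 probe sets that rose and 85 that fell, and changes of at least 8-fold at 15 that rose and 3 that fell. Counted by the brightest probe set of each gene, 688 of 11982 genes rose and 364 fell, or 5.74% and 3.04%. These shares are the background for the gene groups below. In 6 of the 1113 genes with a probe set past the threshold, different probe sets went in opposite directions.

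The counts depended on single arrays. With control replicate 1 left out, 1743 were higher and 1453 lower. With control replicate 2 left out, 185 were higher and 79 lower, and with either rescue array left out, 7 and 1. When a rescue array is left out, the spread is estimated from the control pair alone. With the mutant arrays kept in the fit to estimate the spread, 352 were higher and 145 lower without rescue replicate 1, and 304 higher and 188 lower without its replicate 2. That fit gave 2363 higher and 2516 lower when control replicate 1 was left out, and 884 higher and 591 lower when control replicate 2 was. A lone array of a group is assumed there to vary like the others. With all 6 arrays in the fit 1281 were higher and 985 lower. Adding the 5′ to 3′ index to that fit as covariate lowered these counts to 593 and 349, of which 503 and 248 were among the 812 and 498 of the 4 arrays. Of the 98 probe sets of genes named by rule below, 88 passed on the 4 arrays. Of these 88, 7 still passed without rescue replicate 1 and 7 without rescue replicate 2, and with the mutant arrays kept in the fit 56 and 58 did. With the covariate 71 of the 88 passed.

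**Figure D1:**
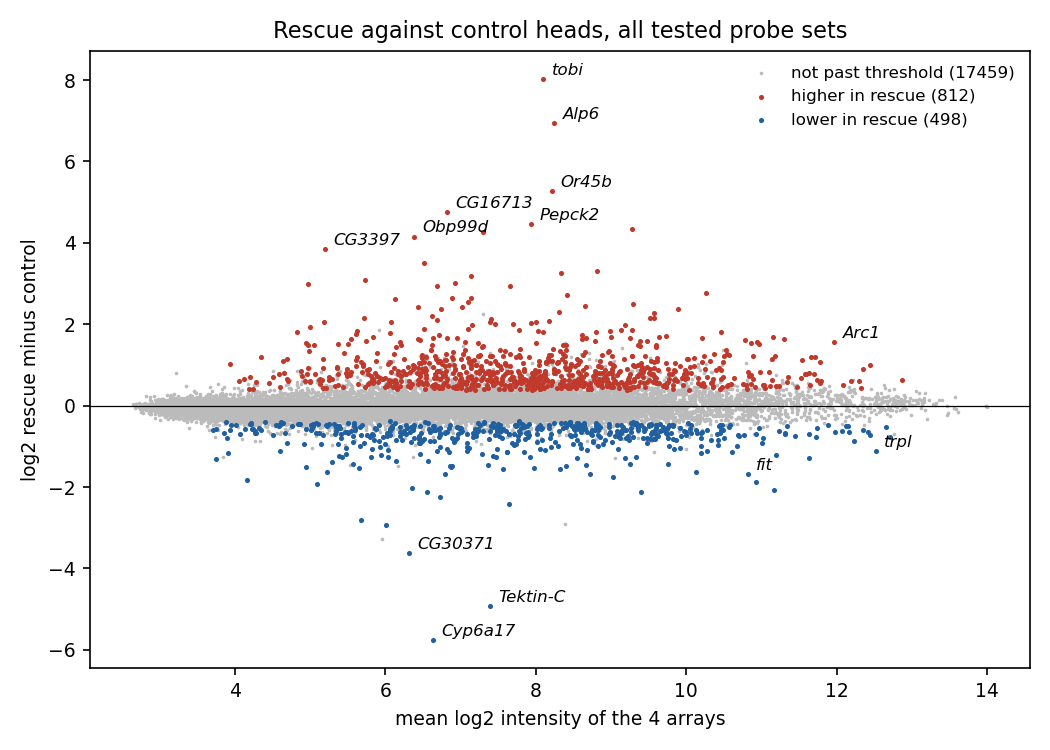
Each point is a probe set, with the mean log2 intensity of the 4 arrays on the horizontal axis and the log2 difference of rescue minus control on the vertical axis. The 812 probe sets higher in rescue are red and the 498 lower are blue; tobi, Alp6 and Or45b stand highest, and Cyp6a17 and Tektin-C lowest.

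The largest rise was in tobi, an α-glucosidase gene known as a target of brain insulin, whose enzyme splits sugars. It read 19.0 and 15.2 on the control arrays and 4250.1 and 4649.0 on the rescue arrays, a rise of 8.03 ± 0.13 on the log2 scale (SE, n = 2 per group, adjusted p = 3.63e-05, limma). The mutant arrays read 2252.4 and 1442.6, so tobi was brighter on both rescue arrays than on either mutant array. Pepck2, a phosphoenolpyruvate carboxykinase gene of gluconeogenesis, read 52.3 and 52.1 in control and 969.0 and 1366.9 in rescue, a rise of 4.46 ± 0.17 (adjusted p = 4.97e-04). Its mutant values were 1562.2 and 1614.4, above both rescue arrays. CG16713 rose from 23.6 and 20.1 to 604.1 and 570.8 in rescue, by 4.75 ± 0.11, beside 479.9 and 409.3 in mutant heads.

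Alp6, an alkaline phosphatase gene, rose from 25.4 and 29.6 to 3389.6 and 3361.2 in rescue, by 6.94 ± 0.10 (adjusted p = 3.63e-05). Or45b, an odorant receptor gene, rose from 56.8 and 40.5 to 1813.3 and 1887.3 in rescue, by 5.27 ± 0.17 (adjusted p = 2.52e-04). Both read higher on the mutant arrays, Alp6 at 4207.6 and 3982.4 and Or45b at 2240.2 and 2103.7. Or45b is the first and Alp6 the second gene on one side of mir-14 in the gene order of chromosome arm 2R. By size of rise they ranked 3 and 2 of 11892 genes with a known place. The other 28 measured genes within 15 places of mir-14 had changes between -1.12 and 1.01. Of these, wun2, a lipid phosphate phosphatase gene, rose by 1.0 ± 0.15 and the glutathione S-transferase gene GstT1 by 1.01 ± 0.092. The axonemal dynein gene ODA-Dnal1 fell by 0.67 ± 0.086 and Pdk, the pyruvate dehydrogenase kinase gene, by 1.12 ± 0.12, from 1833.4 and 1822.5 to 756.1 and 941.6.

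**Figure D2:**
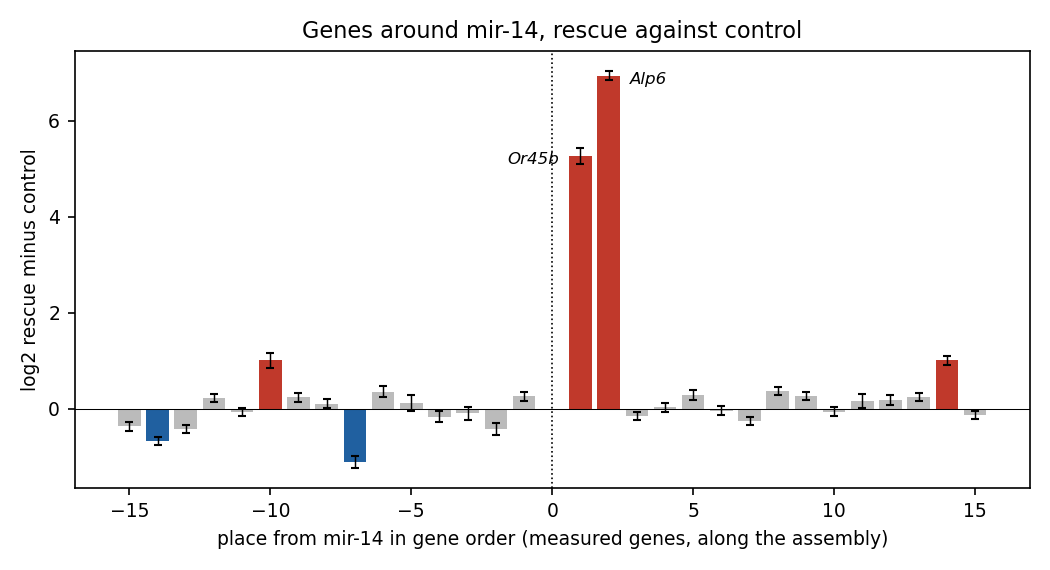
Bars show the log2 difference of rescue minus control for the measured genes within 15 places of mir-14 in gene order, with SE as error bars; red and blue bars passed the threshold and grey bars did not. Or45b and Alp6 stand at 5.27 and 6.94, and every other bar lies between -1.12 and 1.01.

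In 4 of the largest rises the mutant arrays read far closer to control than to rescue. Obp99d, an odorant binding protein gene, read 20.5 and 19.1 in control, 19.9 and 20.5 in mutants and 379.9 and 327.0 in rescue, a rise of 4.15 ± 0.11 over control (adjusted p = 1.53e-04). CG3397 read 9.6 and 9.7 in control, 8.6 and 9.4 in mutants and 124.7 and 156.3 in rescue, a rise of 3.85 ± 0.13 (adjusted p = 2.55e-04). Its control values were as dim as the dimmest control probe sets, which leaves the size of this rise uncertain. CG6912 rose from 46.4 and 47.5 to 401.9 and 454.3 in rescue, by 3.19 ± 0.095, with 68.2 and 81.5 in mutant heads. CG9616 rose from 12.0 and 10.3 to 104.3 and 74.3 in rescue, by 2.99 ± 0.18, with 15 and 16.4 in mutant heads. Its control values too were close to the dimmest control probe sets, and its change was 1.94 on log2 of intensity plus 16. In these 4 genes both rescue arrays lay above all 4 other arrays. For CG9377 the mutant arrays lay between the others, with 115.8 and 93.5 in control, 311.8 and 470.4 in mutants and 891.2 and 1117.8 in rescue (3.26 ± 0.16).

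For the remaining large rises the mutant arrays read far above control too. Cyp12d1-d, a mitochondrial cytochrome P450 gene, read 24.7 and 52.3 in control, 647.9 and 562.4 in mutants and 698.8 and 690.9 in rescue, a rise of 4.27 ± 0.33 (adjusted p = 0.00403). It has a near-identical copy, so the signal may be shared between both genes. The G protein-coupled receptor gene mthl8 rose from 25.4 and 29.1 to 299.6 and 315.7 in rescue, by 3.50 ± 0.10. TwdlE, a cuticle protein gene of the Tweedle family, rose from 17.0 and 19.6 to 166.1 and 145.6 in rescue, by 3.09 ± 0.11. CG10514 rose by 3.03 ± 0.21 and CG18549 by 2.94 ± 0.12. These 15 genes are the largest rises among genes with 1 symbol, and the next 3 were the second probe set of Arc1, kek5 and squ, at 2.77, 2.64 and 2.61. All 15 passed without either control array. Only tobi, Alp6, CG16713, Pepck2, Obp99d and CG3397 of them passed without either rescue array, while all 15 did with the mutant arrays kept in the fit (adjusted p up to 0.0114).

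**Figure D3:**
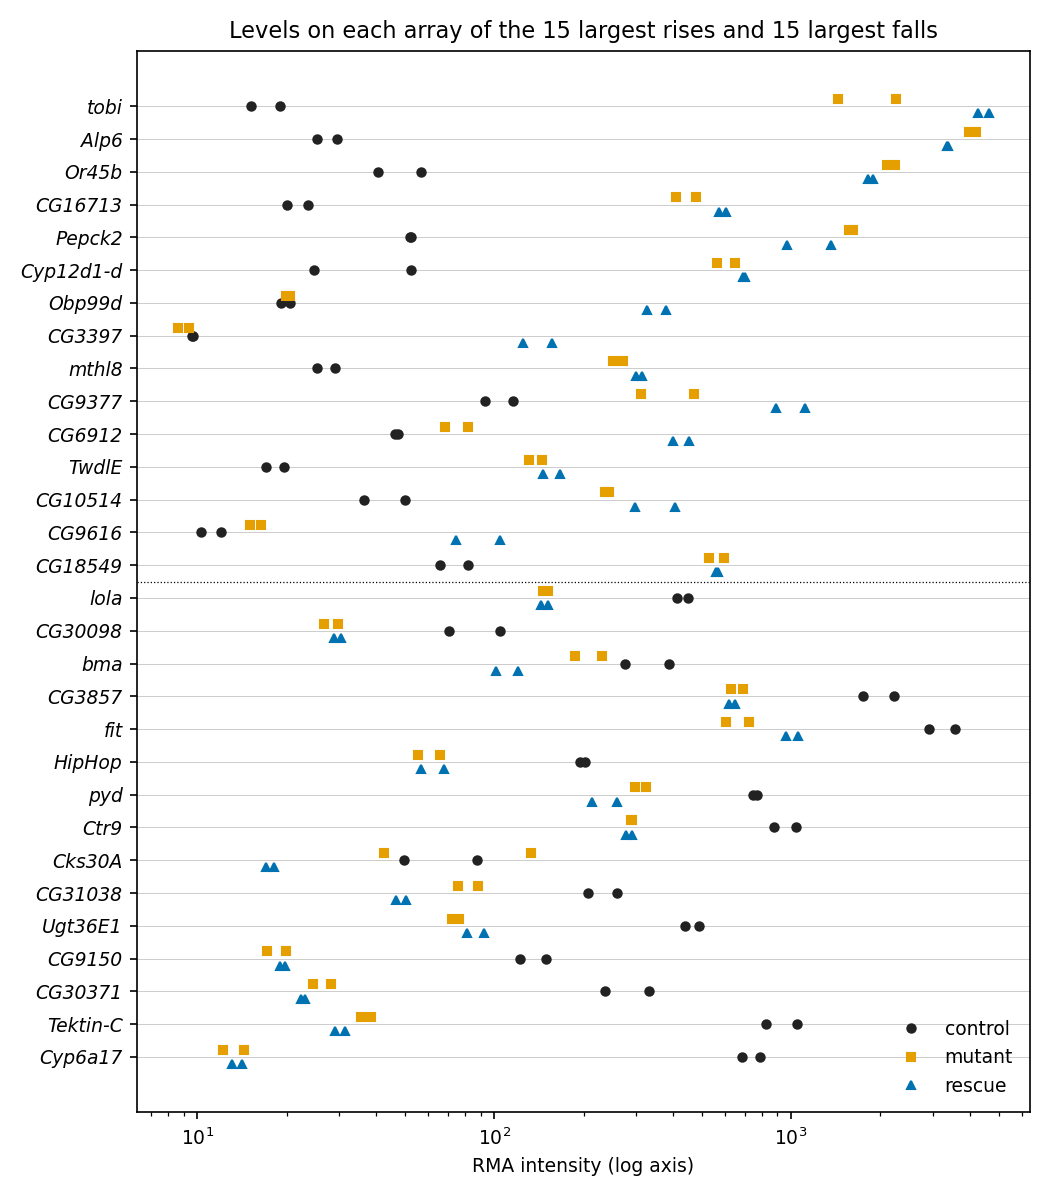
RMA intensity on a log axis for the 15 genes with the largest rises (top of the plot) and the 15 with the largest falls (bottom), with 1 symbol per array for control, mutant and rescue. Obp99d and CG3397 have rescue symbols far to the right of the control and mutant symbols, which lie close together; for Alp6, Or45b, Cyp6a17 and Tektin-C the mutant and rescue symbols are close.

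The largest fall was in Cyp6a17, a cytochrome P450 gene known for its role in temperature preference. It read 784.4 and 684.3 in control and 14.1 and 13.1 in rescue, a change of -5.75 ± 0.10 (adjusted p = 3.92e-05). The mutant values, 12.2 and 14.4, were like those of rescue, and all 4 were little above the dimmest control probe sets, which leaves the size of the fall uncertain. Tektin-C, which encodes a microtubule protein of cilia and flagella, read 821.4 and 1043.9 in control and 31.5 and 29.2 in rescue (-4.93 ± 0.13, adjusted p = 1.85e-04), with 38.5 and 35.5 in mutant heads. CG30371 fell from 236.8 and 332.4 to 22.3 and 23 in rescue, a change of -3.63 ± 0.17. CG9150 fell from 122.6 and 149.8 to 19.0 and 19.7 in rescue, a change of -2.81 ± 0.12. Ugt36E1, a UDP-glycosyltransferase gene, fell from 437.8 and 491.6 to 81.3 and 92.4 in rescue, a change of -2.42 ± 0.11. For these 5 genes the control arrays stood far above all mutant and rescue arrays.

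For CG31038, Cks30A and bma the rescue arrays read below both other groups. CG31038 read 206.7 and 260.0 in control, 88.5 and 75.6 in mutants and 46.8 and 50.6 in rescue (-2.25 ± 0.13). Cks30A, a subunit gene of cyclin-dependent kinases, read 49.8 and 87.7 in control, 42.6 and 132.8 in mutants and 17.0 and 18.1 in rescue (-1.91 ± 0.26, adjusted p = 0.0168). Its replicates varied widely, and with all 6 arrays in the fit it did not pass (adjusted p = 0.0507), nor with the 5′ to 3′ covariate (adjusted p = 0.197). The gene bma read 275.5 and 389.0 in control, 231.4 and 187.0 in mutants and 101.4 and 120.7 in rescue (-1.57). The gene fit, which encodes a satiety peptide of the fat body, had rescue arrays between the others and read 3564.6 and 2908.9 in control, 602.3 and 722.6 in mutants and 965.4 and 1056.8 in rescue (-1.67 ± 0.12, adjusted p = 0.00344).

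The other large falls were in the transcription elongation gene Ctr9 (-1.74), the cell junction gene pyd (-1.69), the telomere protein gene HipHop (-1.68), CG3857 (-1.64), CG30098 (-1.54) and the transcription factor gene lola (-1.54). The pyd value came from 1 of its probe sets, and the others had differences from -0.18 to -0.70. The gene lola, which makes many isoforms, had 15 probe sets, and another of them rose by 0.71 (adjusted p = 0.0419). Just outside the 15 largest falls stood hbs, sicily and CG11619, at -1.50, -1.49 and -1.48. Without control replicate 2, pyd (adjusted p = 0.0509) and bma (adjusted p = 0.0589) did not pass, and without either rescue array only Cyp6a17 of the 15 did. With the mutant arrays kept in the fit and a rescue array left out, all but Cks30A passed.

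Genes of the insulin system were next compared, since the transgene acts in the cells that make these peptides. Among 7 measured genes listed with insulin-like peptides and insulin cell products, 2 rose and none fell. That is 28.6%, against 5.74% higher over all genes. Neither riser encodes an insulin-like peptide. Without adjustment, 2 were lower at a p under 0.05 (limma), Ilp2 and Ilp5. Sdr, which encodes a secreted decoy of the insulin receptor, read 174.2 and 185.8 in control, 357.7 and 291.2 in mutants and 407.3 and 363.3 in rescue, a rise of 1.10 ± 0.097 (adjusted p = 0.00537). The gene conv, which encodes a secreted protein that binds insulin-like peptides, rose from 27.9 and 27.8 to 44.3 and 42.3 in rescue, by 0.64 ± 0.081. Neither passed without control replicate 2, and conv did not pass with the 5′ to 3′ covariate. Ilp2, the insulin-like peptide gene most specific to these neurons, read 1126.8 and 1285.4 in control, 1106.2 and 1048.2 in mutants and 909.3 and 869.8 in rescue. Its change of -0.44 ± 0.099 did not pass (adjusted p = 0.0614), although both rescue arrays lay below all others. With all 6 arrays in the fit Ilp2 passed (adjusted p = 0.0269, limma). Adding the 5′ to 3′ covariate gave -0.28, which did not pass (adjusted p = 0.172, limma). Leaving out 1 array gave Ilp2 changes from -0.53 to -0.34. Ilp5 read 678.8 and 688.4 in control, 388.1 and 337.4 in mutants and 571.7 and 511.5 in rescue (-0.34 ± 0.092, adjusted p = 0.0928).

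Of 11 measured genes of insulin, FOXO and TOR signalling, 0 passed (limma), and without adjustment 2 were higher and 3 lower at a p under 0.05. The change of InR, the insulin receptor gene, was -0.11 ± 0.14 (adjusted p = 0.660), and that of foxo, the transcription factor gene restrained by insulin, was 0.39 ± 0.15 (adjusted p = 0.169). Among 4 measured genes reported as miR-14 targets, 0 passed (limma), and 0 did at an unadjusted p under 0.05. The gene sug, which encodes the sugar-sensing transcription factor Sugarbabe, read 193.1 and 75.7 in control, 386.8 and 490.6 in mutants and 201.3 and 241.9 in rescue. Its change of 0.87 ± 0.42 (adjusted p = 0.248) lay within the spread of the control pair, whose second array was low. The differences of sug, foxo and EcR depended on the control array kept. Without control replicate 1 they were 1.54, 0.59 and 0.38, and without control replicate 2 they were 0.19, 0.18 and -0.0045. With the 5′ to 3′ covariate they were -0.14, 0.12 and -0.11, and none passed (adjusted p = 0.691, 0.662 and 0.616, limma). EcR, the ecdysone receptor gene, had 0.19 ± 0.14 (adjusted p = 0.429), hh, the Hedgehog ligand gene, 0.26 ± 0.22 (adjusted p = 0.480), and the inositol trisphosphate kinase gene IP3K2 0.21 ± 0.11 (adjusted p = 0.290). The reported target Drice was not analysed here.

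Among 28 measured genes of sugar sensing and sugar metabolism, 6 rose and 1 fell, or 25.0% against 8.78% of all genes, with a list median of 0.10. The rises after tobi and Pepck2 were in UGP, the UDP-glucose pyrophosphorylase gene, in the fructose-1,6-bisphosphatase gene fbp, in the glycogen branching enzyme gene AGBE and in daw, an activin-like ligand gene. UGP read 67.4 and 90.5 in control, 105.4 and 98.3 in mutants and 272.4 and 194.1 in rescue, a rise of 1.56 ± 0.21 (adjusted p = 0.0166), with both rescue arrays above the rest. The gene fbp rose from 1034.1 and 943.9 to 2044.7 and 2134.6 in rescue, by 1.08 ± 0.090 (adjusted p = 0.00441), beside 1965.2 and 1926.8 in mutant heads. AGBE rose by 0.78 ± 0.086 and daw by 0.60 ± 0.11. The maltase gene Mal-B1 read 112.0 and 82.0 in control and 42.9 and 47.3 in rescue, and fell by 1.09 ± 0.16 (adjusted p = 0.0219). Without control replicate 2, 3 were higher and 1 lower, and without either rescue array 2 were higher. With the covariate daw did not pass (adjusted p = 0.0819).

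Of 11 glycolysis genes, 1 passed by its brightest probe set, or 9.09% against 8.78% of all genes, and the list median was 0.35. It was Pgi, the glucose-6-phosphate isomerase gene, which rose from 2455.2 and 2350.4 to 4354.1 and 4009.4 in rescue, by 0.80 ± 0.088 (adjusted p = 0.0103, limma). Its mutant values of 3717.5 and 3341.8 lay between. By any probe set, 3 glycolysis genes rose. Unadjusted, 7 were higher and 0 lower at a p under 0.05 (limma). With all 6 arrays in the fit 6 rose, without control replicate 1 there were 4, and without control replicate 2 or either rescue array 0. Of 13 genes of fat storage and lipases, 1 rose and 1 fell, 15.4% against 8.78% of all genes. The gene whd, which encodes the carnitine palmitoyltransferase that admits fatty acids to mitochondria, rose from 883.5 and 862.6 to 1841.8 and 1894.2 in rescue, by 1.10 ± 0.080 (adjusted p = 0.00332), with 1711.8 and 1693.4 in mutant heads. The lipase gene mag fell by 0.71 ± 0.14 (adjusted p = 0.0402). It lost its call with either control array left out (adjusted p = 0.0569 and 0.0731), with either rescue array left out, or on log2 of intensity plus 16 (adjusted p = 0.0559). The triglyceride lipase gene bmm read 862.3 and 917.2 in control, 558.7 and 510.2 in mutants and 938.8 and 737.5 in rescue (-0.10, adjusted p = 0.674), so control and rescue overlapped and both mutant arrays lay below them. None of 13 fatty acid synthesis genes passed (limma), and without adjustment 2 were higher and 1 lower at a p under 0.05.

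Among 7 enzymes of one-carbon metabolism, 1 rose and 2 fell, 42.9% against 8.78% of all genes, with a list median of 0.07. Nmdmc, a mitochondrial folate enzyme gene, read 1939.1 and 1607.0 in control, 194.2 and 236.6 in mutants and 851.4 and 721.2 in rescue (-1.17 ± 0.13, adjusted p = 0.0111), with the rescue arrays between the other groups. The glycine N-methyltransferase gene Gnmt fell from 2398.3 and 2086.3 to 1420.3 and 1292.0 in rescue, a change of -0.72 ± 0.11. Sardh, the sarcosine dehydrogenase gene, rose from 306.7 and 309.0 to 559.2 and 456.5 in rescue, by 0.71 ± 0.12.

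Some phototransduction genes, which turn light into an electrical signal, were lower in rescue heads. Of 17 measured, 7 fell and none rose, 41.2% against a background of 3.04% lower, with a list median of -0.42. The rest of the 27 listed genes, among them the rhodopsin gene ninaE, norpA and ninaC, were not analysed here. The channel gene trpl read 8260.6 and 9090.6 in control, 5972.2 and 5613.7 in mutants and 4103.4 and 3911.4 in rescue, a change of -1.11 ± 0.091 (adjusted p = 0.00432). The G protein gene Galphaq read 3843.7 and 4246.4, then 3157.5 and 3116.4, then 2599.4 and 2388.7 in the same order (-0.70 ± 0.096, adjusted p = 0.0182). For both genes the 3 groups did not overlap and rescue was lowest. The phosphatidylinositol transfer gene rdgB fell by 0.79, the diacylglycerol kinase gene rdgA by 0.59, the channel gene trp by 0.52, the photoreceptor adhesion gene chp by 0.50 and the scaffold gene inaD by 0.47, with adjusted p from 0.0285 to 0.0440. Arr2 had a change of -0.04, with signals near the highest value of each array (16049.6 to 16778.3). Whether this limits its change was not tested. The count of 7 was 1 without control replicate 2, 0 without either rescue array and 2, trpl and Galphaq, with the 5′ to 3′ covariate.

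Of 17 eye pigment genes, 3 fell and none rose, 17.6% against 3.04% lower over all genes, with a list median of -0.12. The gene se, which encodes an enzyme of red pteridine pigments, read 2081.8 and 2582.7 in control, 1730.9 and 1489.8 in mutants and 1141.8 and 987.6 in rescue (-1.13 ± 0.14, adjusted p = 0.0133), with rescue lowest. The GTP cyclohydrolase gene Pu fell by 0.47 ± 0.081 and g, a gene of the AP-3 trafficking complex, by 0.48 ± 0.098. The mutant arrays of Pu, at 1836.2 and 1981.0, were above control. The count was 5 without control replicate 1, 0 without control replicate 2 or either rescue array, and 1, se, with the covariate. The gene w was not analysed here.

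Of 18 biogenic amine genes, 3 fell and none rose, 16.7% against 3.04% lower over all genes, with a list median of -0.20. Counted by any probe set, 4 fell. Without adjustment, 3 were higher and 8 lower at a p under 0.05 (limma). Ddc, which encodes the dopa decarboxylase of dopamine and serotonin synthesis, fell from 1801.9 and 2025.4 to 1080.0 and 1115.7 in rescue, a change of -0.80 ± 0.094 (adjusted p = 0.0123). The dopamine receptor gene Dop1R1 fell from 138.5 and 168.8 to 63.0 and 78.0 in rescue, a change of -1.13 ± 0.15 (adjusted p = 0.0158), and Dop2R fell by 0.74 ± 0.11, from 175.7 and 209.2 to 112.0 and 117.6. The mutant arrays of these 3 genes also lay below control. None of the 3 passed without control replicate 2 or without either rescue array, and 5 genes of the list fell without control replicate 1. Of 27 neuropeptide genes, Nplp4 rose by 0.80 ± 0.14 and no other passed, or 3.70% against 8.78% of all genes. Of 12 clock genes, 1 rose and 1 fell, or 16.7%. Pdfr, the receptor gene for the clock neuropeptide, rose by 0.42 and the clock gene tim fell by 0.54 ± 0.11. Neither Pdfr nor tim passed without control replicate 2 (adjusted p = 0.110 and 0.109), without either rescue array, or with the covariate (adjusted p = 0.130 and 0.132). Of 6 activity-regulated genes, Arc1, which encodes a capsid-like protein that carries RNA at synapses, rose by 1.56 ± 0.097 (adjusted p = 0.00209). It read 2488.2 and 2186.6 in control, 12454.7 and 12469.6 in mutants and 6968.0 and 6818.1 in rescue, so the rescue arrays lay between the others. The gene sr, an early-response transcription factor gene, rose by 1.13 ± 0.14. Arc1 and sr were 33.3% of their list, against 5.74% higher over all genes.

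**Figure D4:**
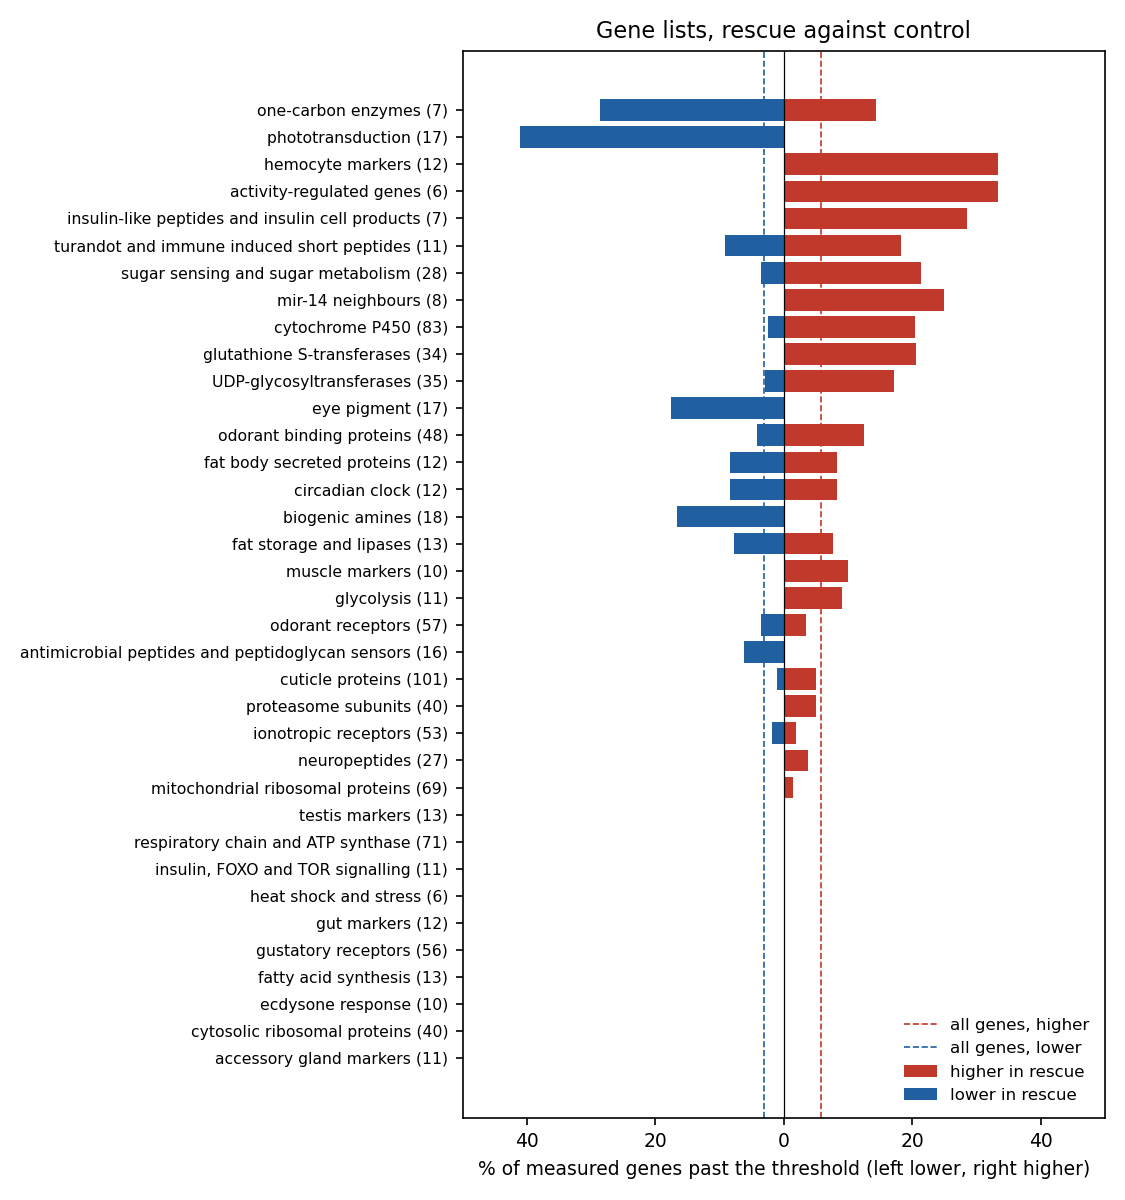
Bars give the percentage of measured genes in each list that were higher (red, right) or lower (blue, left) in rescue than in control at an adjusted p under 0.05, with the number measured in brackets and dashed lines for all genes (5.74% and 3.04%). Phototransduction reaches 41.2% lower, while gustatory receptors, cytosolic ribosomal proteins and the respiratory chain have no bar.

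Members of the detoxification families rose. Of 83 cytochrome P450 genes, 17 rose and 2 fell, 22.9% against 8.78% of all genes, with a list median of 0.16. After Cyp12d1-d came Cyp6a23, which read 202.9 and 148.6 in control, 670.1 and 782.3 in mutants and 938.0 and 950.3 in rescue, a rise of 2.44 ± 0.16 (adjusted p = 0.00221). Cyp4p2 rose from 55.7 and 56.7 to 284.4 and 317.7 in rescue, by 2.42 ± 0.092, and Cyp9h1 by 2.07 ± 0.13, from 140.6 and 112.2 to 518.8 and 534.0. In these 3 genes both mutant arrays were also far above control. The falls were in Cyp6a17 and Cyp9c1 (-0.75 ± 0.081). The gene order of arm 2R places Cyp6a17, Cyp6a23, Cyp6a9 and Cyp6a8 within 7 places, with changes of -5.75, 2.44, 1.17 and 1.66, so close neighbours moved in opposite directions. Genes of this cluster are alike in sequence, and how their probe sets share signal was not tested.

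Of 34 glutathione S-transferase genes, 7 rose and none fell, 20.6% against 5.74% higher over all genes, with a list median of 0.07. Counted by any probe set, 1 of them fell. GstE2 rose from 312.5 and 207.8 to 560.4 and 719.7 in rescue, by 1.32 ± 0.22, GstE9 by 1.08 ± 0.22, from 3039.9 and 1901.2 to 4967.1 and 5232.8, and GstE5 by 0.89. Control replicate 2 was the lower control array for GstE2 and GstE9. Of 35 UDP-glycosyltransferase genes, 6 rose and 1 fell. Ugt36F1 rose by 1.48 ± 0.18, Ugt37B1 by 1.32 ± 0.16 and Ugt35A1 by 0.90, and Ugt36E1 was the one that fell. With the 5′ to 3′ covariate the changes of GstE2, GstE9, GstE5 and Ugt36F1 were over 1.5 times smaller, at 0.73, 0.65, 0.56 and 0.87, and GstE9 (adjusted p = 0.0724) and Ugt36F1 (adjusted p = 0.0627) did not pass. Without control replicate 1, 28 P450 genes were higher and 4 lower, 15 glutathione S-transferases were higher, and 10 UDP-glycosyltransferases were higher and 2 lower. Without control replicate 2, the P450 list had 8 higher and 1 lower, the glutathione S-transferases 2 higher and the UDP-glycosyltransferases 2 higher and 2 lower, and without either rescue array none was higher in any of them. With the covariate there were 11 higher and 5 lower, 6 higher and 3 lower, and 4 higher and 2 lower.

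**Figure D5:**
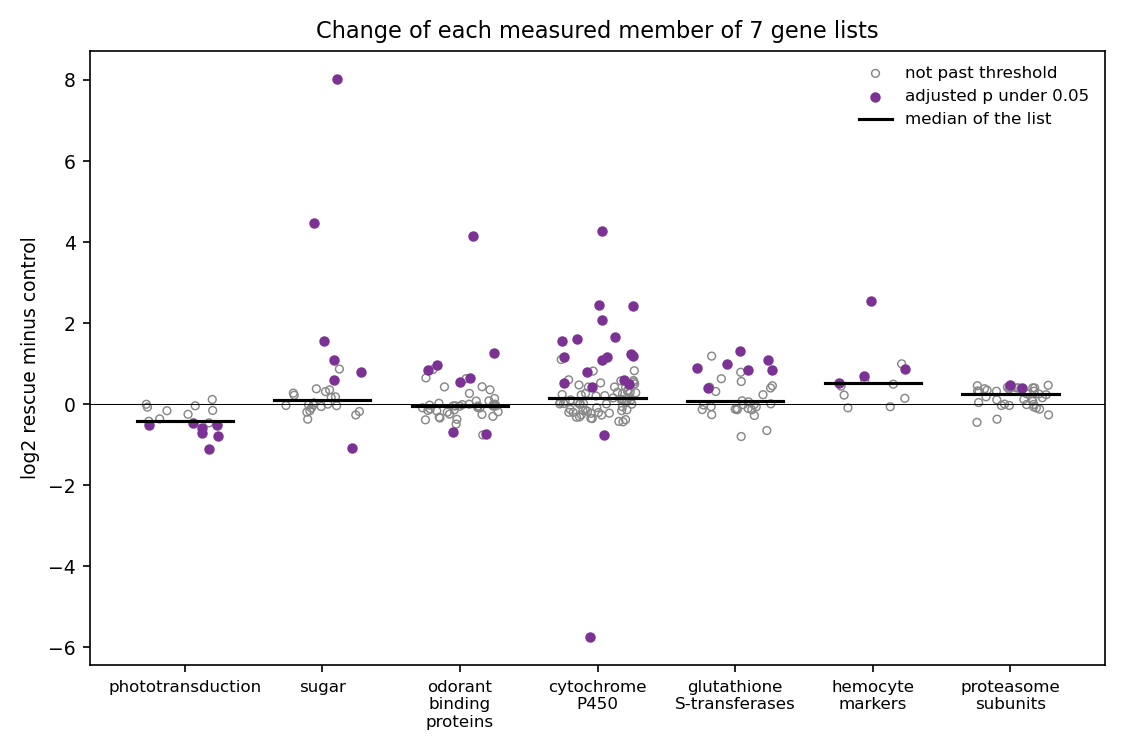
Each point is a measured gene of 1 of 7 lists, at its log2 difference of rescue minus control; filled points passed the threshold, open points did not, and the bar is the median of the list. The phototransduction median is -0.42, while the P450 median is 0.16 with 17 filled points above 0.

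Of 48 odorant binding protein genes, 6 rose and 2 fell, 16.7% against 8.78% of all genes. The list median was -0.04, and 19 of the 48 had a change above 0. After Obp99d, lush, which encodes a binding protein for a male pheromone, read 42.7 and 46.5 in control, 43.4 and 37.5 in mutants and 103.2 and 111.6 in rescue, a rise of 1.27 ± 0.093 (adjusted p = 0.00339). Obp8a read 101.9 and 85.4, then 84.9 and 96.4, then 192.9 and 173.0 in the same order (0.97 ± 0.12). Obp83b read 70.3 and 87.5 in control, 31.3 and 30.2 in mutants and 156.4 and 127.6 in rescue (0.85), so the mutant arrays were below and the rescue arrays above control. For lush and Obp8a the control and mutant arrays overlapped and both rescue arrays lay above them. Obp99b fell from 7707.3 and 6627.1 to 4471.8 and 4177.0 in rescue, a change of -0.73 (adjusted p = 0.0209), with 2124.7 and 1897.8 in mutant heads. Obp69a fell from 306.6 and 255.5 to 177.8 and 170.9 in rescue, a change of -0.68 ± 0.11, while its mutant arrays read 384.4 and 353.5. Without control replicate 2 the counts were 2 and 1, without either rescue array 1 and 0, and with the covariate 7 and 9.

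Calls among receptor genes for odours and tastes were no more frequent than among all genes. Of 57 odorant receptor genes, 2 rose and 2 fell, 7.02% against 8.78% of all genes, and the ionotropic receptors below had 3.77%. Or49b rose by 0.92 ± 0.079 besides Or45b, from 29.5 and 30.1 to 56.8 and 56.2. Orco, the co-receptor gene needed by most odorant receptors, fell from 124.8 and 97.8 to 64.1 and 62.3 in rescue, a change of -0.81 (adjusted p = 0.0274), and Or85e fell by 0.42 ± 0.083. Of 53 ionotropic receptor genes, Ir76a rose from 73.9 and 84.7 to 122.5 and 130.6 in rescue, by 0.68 ± 0.10. Ir75a fell from 80.1 and 93.4 to 37.9 and 34.9 in rescue, a change of -1.25 ± 0.11 (adjusted p = 0.00509), with 112.3 and 68.3 in mutant heads. With the covariate Or85e (adjusted p = 0.102) and Ir75a (adjusted p = 0.0930) did not pass. None of 56 gustatory receptor genes passed (limma), and without adjustment 1 was higher and 5 were lower at a p under 0.05.

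Markers of other cell types were examined for shifts in the make-up of the head samples. Of 12 blood cell (hemocyte) markers, 4 rose and none fell, 33.3% against 5.74% of all genes, with a list median of 0.51. NimC1, a phagocytosis receptor gene, read 67.1 and 47.8 in control, 91.9 and 227.2 in mutants and 308.9 and 360.5 in rescue, a rise of 2.56 ± 0.18 (adjusted p = 0.00303). NimB4 rose by 0.88 ± 0.14, srp, a GATA factor gene also active in fat body, by 0.70 ± 0.094, and NimB2 by 0.53 ± 0.082. The hemocyte gene Hml read 442.5 and 203.8 in control and 432.4 and 387.3 in rescue, so the groups overlapped. The summed level of the 12 markers was 3646.0 and 2766.1 in control and 4407.3 and 4331.8 in rescue. Their part in the other results was not tested. The count was 8 without control replicate 1, 1 without control replicate 2 and 0 without either rescue array.

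Of 12 fat body secreted proteins, Mtp, the lipid transfer protein gene, rose from 584.5 and 577.4 to 1089.3 and 1057.3 in rescue, by 0.89 ± 0.080, and fit fell. Of 10 muscle markers, the troponin C gene TpnC41C rose from 268.3 and 366.5 to 864.2 and 714.5 in rescue, by 1.33 ± 0.18. No gut, testis, accessory gland, neuron or glia marker passed (limma), of 12, 13, 11, 3 and 3 measured. The counts at an unadjusted p under 0.05 were 2, 3, 1, 1 and 1. Summed levels over all 6 arrays lay between 451.8 and 499.2 for gut, 286.4 and 324.9 for testis and 186.8 and 213.2 for accessory gland.

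Of 101 cuticle protein genes, 5 rose and 1 fell, 5.94% against 8.78% of all genes. After TwdlE, Cpr100A rose by 1.81 ± 0.11, Cpr76Bc by 1.65 ± 0.089 and Cpr49Ae by 1.54 ± 0.14, the last from 954.8 and 1244.2 to 3098.8 and 3259.4. Cpr49Ag fell from 592.5 and 761.6 to 249.5 and 239.9 in rescue, a change of -1.46, beside 516.3 and 446.5 in mutant heads. Without control replicate 1 there were 10 higher and 6 lower cuticle genes, and without either rescue array 0. Among immune genes, 1 of 16 antimicrobial peptide and peptidoglycan sensor genes fell, 6.25% against 3.04% lower over all genes. Drsl4 read 5799.5 and 5699.7 in control, 2139.7 and 1950.0 in mutants and 3898.8 and 3417.8 in rescue (-0.66, adjusted p = 0.0219). It did not pass without control replicate 2 or with the covariate. Def, the Defensin gene, read 1108.8 and 1083.2 in control, 100 and 102.9 in mutants and 1296.9 and 1237.3 in rescue, a change of 0.21 that did not pass (adjusted p = 0.179). Both rescue arrays of Def were above control and the mutant arrays far below. Of 11 Turandot and Bomanin genes, 2 rose and 1 fell, 27.3% against 8.78% of all genes. BomT2 rose from 1241.0 and 1126.4 to 3579.8 and 3171.8 in rescue, by 1.51 ± 0.10. BomT3 rose by 0.46 and BomS4 fell by 0.47 ± 0.093. With the covariate BomT3 (adjusted p = 0.105) and BomS4 (adjusted p = 0.0972) did not pass.

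Calls among genes of the protein-making and protein-clearing machinery were no more frequent than among all genes (8.78%). Of 40 proteasome subunit genes, Rpn6 rose by 0.48 ± 0.097 and Prosalpha4 by 0.41, or 5.0%, and the list median was 0.26. Without adjustment, 19 proteasome genes were higher and 2 lower at a p under 0.05 (limma), and 30 had a change above 0. Of 69 mitochondrial ribosomal protein genes, mRpL9 rose by 0.51 ± 0.087, or 1.45%, with a list median of 0.14. By any probe set, 2 of the 69 rose. Unadjusted, 16 of them were higher and 1 lower. With the covariate Rpn6 (adjusted p = 0.118) and mRpL9 (adjusted p = 0.0588) did not pass. With all 6 arrays in the fit 12 proteasome genes and 8 mitochondrial ribosomal protein genes were higher, without control replicate 1 there were 15 and 9, and without control replicate 2 or either rescue array 0 of either. None of 40 cytosolic ribosomal protein genes, 71 respiratory chain and ATP synthase genes, 10 ecdysone response genes or 6 heat shock genes passed (limma). Without adjustment, the counts of higher and lower genes at a p under 0.05 were 2 and 0 for cytosolic ribosomal proteins, 16 and 1 for the respiratory chain, 2 and 2 for ecdysone response and 0 for heat shock genes.

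The calls were spread over the genome. The share of genes past the threshold was 9.02% on arm 2L, 9.19% on 2R, 8.75% on 3L, 8.71% on 3R and 7.90% on X, and 16.9% on chromosome 4 (11 of 65 genes). Some lay side by side in gene order. CG18547, CG12224 and CG3397 are adjacent on 3R and rose together, by 0.59 to 3.85. CG18547 read 142.2 and 136.8 in control, 484.3 and 473.6 in mutants and 492.5 and 497.4 in rescue, so it was high in both, unlike CG3397, for which only the rescue arrays were high. On 3R, CG10513, CG10514, CG13658, CG31288 and CG13659 lie within 12 places and changed by 1.24, 3.03, 1.19, 1.18 and 1.78. On X, CG1552, CG1545, CG1537 and CG15203 are adjacent and rose by 0.90 to 1.39.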

How the data were processed

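The deposited table held 1 intensity per probe set and array on a linear scale, made by the authors with RMA per the submitters' processing notes (version not given in the sources used here), which aligns the arrays and so removes shared changes of total RNA. It held no detection calls. Log2 was taken, and rescue minus control was fitted on the 4 arrays with limma 3.58.1 in R 4.3.3 (lmFit, eBayes, two-sided, 2 residual degrees of freedom plus a prior of 3.59). Benjamini-Hochberg adjustment ran over all 18769 probe sets, with a threshold of 0.05. SE is that of this fit. The 2 arrays of each group limit the precision.

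Genes were named from 13647 probe sets with 1 symbol in the platform annotation. Another 402 had several symbols and 4720 none, and no gene was named from these. RefSeq's genes for the Release 6 plus ISO1 MT assembly held 13544 of the identifiers and gave the gene order. Lists used 1 probe set per gene, that with the highest mean over the 4 arrays. Named genes were the 15 largest rises and falls past the threshold whose groups did not overlap (by the probe set with the largest change), up to 4 members per list past the threshold, and a fixed set including Ilp2, InR, sug and bmm. Further list members (trp, chp, inaD and others beyond 4 in a list), genes in runs or clusters, and Hml were chosen after their values were seen. Members and lists were chosen with earlier results of these data known.

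Alternatives were all 6 arrays, a replicate block, each array left out, a filter on dim probe sets, log2 of intensity plus 16, quantile normalization, centring on the array median, a variance trend, array weights and the 5′ to 3′ ratio as covariate. Leaving out arrays with the mutant arrays in the fit, and a block with crossed numbers, were added after the data were seen. Same-numbered replicates did not deviate together (correlation of deviations -0.19), so the numbers were not used as pairs.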

Additional observations from a re-analysis of the deposited data

How the results depend on the processing

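With all 6 arrays in the fit, 1281 probe sets were higher and 985 lower in rescue, against 812 and 498. Leaving out 1 array gave between 7 and 1743 higher and between 1 and 1453 lower, and with the mutant arrays in the fit 2363, 884, 352 and 304 higher and 2516, 591, 145 and 188 lower (without control 1, control 2, rescue 1 and rescue 2). Fewer arrays then estimate the spread. A replicate block gave 687 and 418, and with crossed numbers 1448 and 993. The dim filter, the offset, quantile normalization, centring, the trend and weights stayed within 1.5-fold. The covariate, added to the fit of all 6 arrays, lowered its counts to 593 and 349. The cause of the other moves was not tested. Of the 88 named probe sets that passed on the 4 arrays, 81 lost their call without rescue replicate 1 and 81 without rescue replicate 2, 40 without control replicate 2, 7 without control replicate 1, 10 with the block and 17 with the covariate. No named probe set past the threshold changed direction. Among those not past it, sug turned to -0.14, hh to -0.18, EcR to -0.11 and bmm to 0.053 with the covariate. Leaving out each array, with or without the mutant arrays in the fit, gave -0.048 to 0.57 for hh, -0.0045 to 0.38 for EcR, -0.30 to 0.086 for InR and -0.27 to 0.078 for bmm. Dim signals limit the size of changes of genes such as Cyp6a17 and CG3397.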
